A study of Equus caballus with 10 samples.

Results

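CXCL9, CXCL10 and CXCL11 are the chemokines that bind the receptor CXCR3. They were chosen by gene symbol with earlier results of these data known, and are 3 of the 29196 genes listed. CXCR3 is best known from activated T cells and natural killer cells, which follow these ligands into inflamed tissue. All of these ligands are classical targets of interferon signalling, in which IRF1 takes part, and NFκB also contributes to their induction. They lack the ELR motif of the CXC chemokines that attract neutrophils.

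RNA was sequenced from primary equine tenocytes, the resident fibroblasts of tendon, of 5 donors, taken after death from the superficial flexor tendon and grown in 3D gels of bovine collagen for 14 days. Each donor gave 1 library to each of 2 groups, named PF-06650833 alone and, where the cytokine was also given, IL-1β plus PF-06650833. PF-06650833 blocks IRAK-4, a kinase that acts downstream of the IL-1 receptor, and was present in every library, at 100 nM with daily addition. The dose of IL-1β was 17 ng/ml, renewed at intervals of 3 to 4 days. Each library comes from several pooled gels, and libraries without the inhibitor were not analysed here. The tenocyte lines are named 090811, 130911, 180412, 250718B and CD in the labels and are called donors 1 to 5 here in that order.

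Values are the deposited log2 values after variance stabilization, on which 3.433 stands for 0 reads. Normalized counts were recovered by inverting that transformation, and whole reads were estimated from how low values are spaced, from 26672336 to 36058789 per library with PF-06650833 alone, and for the libraries with IL-1β from 26982928 to 33464155. Because the log2 scale compresses differences between low values, it understates the change of genes that start near 0 reads, which includes all 3 ligands. In bulk RNA, fewer cells that express a gene and less RNA of it per cell cannot be told apart. Collagen genes were abundant, with COL1A1 at 18.74 ± 0.53 (SD, n = 5) with PF-06650833 alone, whereas the late tendon marker TNMD was listed at 0 reads in all 10 libraries. The T cell genes CD3D, CD3E, CD3G, CD2 and CD5 and the macrophage genes AIF1, C1QA and C1QB were also listed at 0 reads in all 10 libraries, and the leukocyte gene PTPRC reached at most 3 estimated reads. Other genes of these marker lists were detected, such as NKG7 with up to 245 estimated reads. CD14, the macrophage marker with the most estimated reads, was at 10.72, 8.37, 3.43, 3.43 and 3.43 with PF-06650833 alone and at 10.73, 9.50, 3.43, 8.75 and 10.27 with IL-1β in donors 1 to 5, so that it had reads only with IL-1β in donors 4 and 5 and none in donor 3 (adjusted p = 0.34 from limma). CD68 rose from 6.64 ± 0.31 to 8.34 ± 0.79 (SD, n = 5 each, adjusted p = 0.00795 from limma). The summed normalized counts of the 11 T and NK cell markers ranged from 33.0 to 272 with PF-06650833 alone and from 20.5 to 169 with IL-1β, and none of the 3 that could be tested was called. Those of the 12 macrophage and dendritic cell markers ranged from 125 to 1840 and from 278 to 2050, with 1 of 6 tested called, and those of the 6 endothelial markers from 16.3 to 42.8 and from 5.12 to 27.4, with 0 of 4 called. These marker counts stand beside 6.68% of all tested genes called by limma, 3.11% higher and 3.57% lower with IL-1β. The share called was 6.96% without donor 4 and 8.26% with the donor as replicate block. Of 11 tenocyte markers tested, SCX, MKX and TNC were called lower and none was called higher (3 called, and 6 without donor 4). The list did not move as a whole, as DCN, PDGFRA and LUM differed by 1.01, 0.46 and 0.33, without a call. DCN was higher in 5 of 5 donors, and the other tested markers were lower on average. With the donor as replicate block 5 were called lower, as COL1A1 and COL1A2 were added, which differed by -1.38 and -1.28 and were lower in 5 of 5 donors (adjusted p = 0.0147 and 0.0169, against 0.0682 and 0.0614 without the block). The part of other cells in the ligand levels was not tested.

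CXCL9 was close to absent with PF-06650833 alone. Its log2 values were 3.43, 4.70, 3.89, 4.02 and 3.43 in donors 1 to 5, or 0, 7, 1, 2 and 0 estimated reads. In the same donors given IL-1β as well, the log2 values were 10.79, 10.84, 9.0, 13.48 and 10.27. The lowest of these lay 4.30 above the highest value without IL-1β, so the groups did not overlap. In normalized counts, CXCL9 reached 1750, 1811, 491, 11374 and 1211 with IL-1β, and donor 4 stood far above the other 4.

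CXCL10 was likewise near 0 without IL-1β, at 4.12, 4.61, 3.43, 3.90 and 3.43 on the log2 scale, from 2, 6, 0, 1 and 0 estimated reads. With IL-1β plus PF-06650833 it was at 10.14, 9.78, 8.47, 12.42 and 7.17 in donors 1 to 5. Donor 4 was again the highest, but here donor 5 was the lowest, with a normalized count of 124 against 5441 in donor 4. CXCL10 thus spread 44.0-fold between donors with IL-1β, against 23.2-fold for CXCL9.

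CXCL11 was listed at 0 reads in all 5 libraries with PF-06650833 alone. It was detected in all 5 with IL-1β, at 6.08, 6.31, 4.40, 7.46 and 4.48 on the log2 scale. These values correspond to 39, 52, 4, 110 and 5 estimated reads in donors 1 to 5, so that donors 3 and 5 are not distinguishable at this depth. CXCL11 passed the filter on low values, which asks for reads in at least 5 of the 10 libraries, only through the group in which it was high. CXCL9 and CXCL10 had reads in 8 libraries each. Both were at 0 reads in 2 of the 5 libraries without IL-1β, so they too needed the group with IL-1β to pass.

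**Figure D1:**
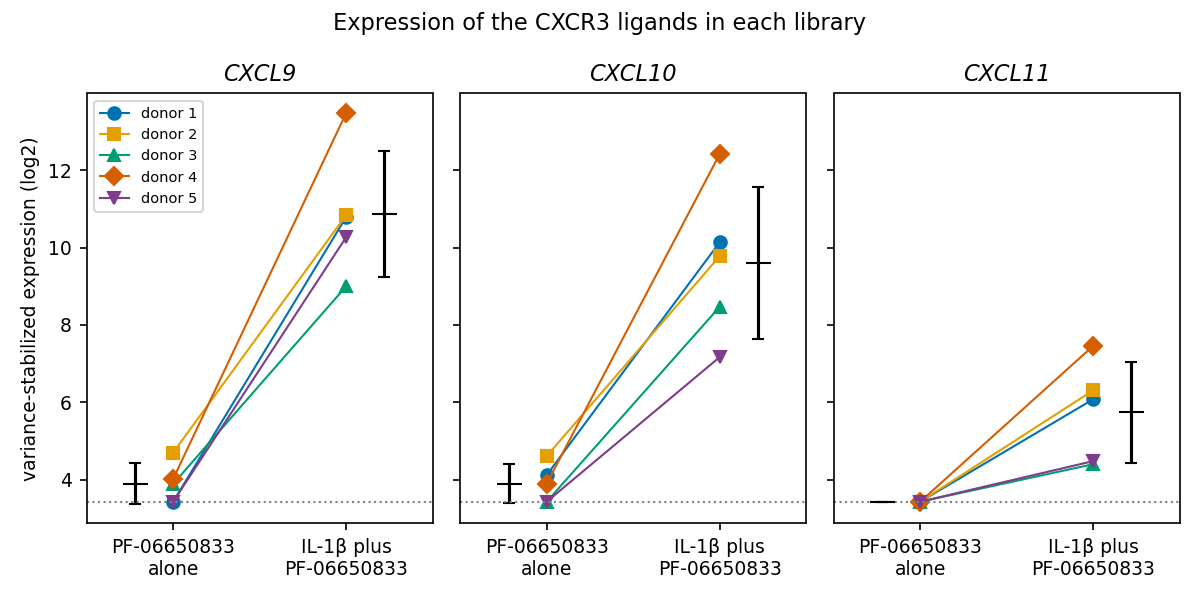
Log2 expression of CXCL9, CXCL10 and CXCL11 in each library, with lines joining the libraries of a donor, black bars giving the mean and SD of 5 libraries, and the dotted line marking 0 reads. Every donor lies higher with IL-1β plus PF-06650833, and donor 4 lies highest in all 3 panels, at 13.48, 12.42 and 7.46.

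All 3 ligands were higher in 5 of 5 donors. They were chosen from this comparison, so the differences are a description without a test. The mean difference within donors was 6.98 ± 1.62 for CXCL9, 5.70 ± 1.77 for CXCL10 and 2.31 ± 1.30 for CXCL11 on the log2 scale (SD, n = 5 donors). Of the 17992 genes that passed the filter, 12.7% had groups that did not overlap, 6.29% with higher and 6.41% with lower values with IL-1β, and the median difference of all of them was -0.01. As mean normalized counts, CXCL9 was 1410-fold higher with IL-1β (95% interval 762 to 3170) and CXCL10 703-fold higher (369 to 1530), where the exact Poisson intervals cover only the counting error of 9 reads for each gene over the 5 libraries with PF-06650833 alone, a sum of estimates taken before each was rounded to whole reads. These ratios depend on particular donors. Without donor 4 they were 525 and 241, and without donor 2, which held most of the reads seen without IL-1β, they were 5130 and 1920. Set against 3 reads per library as a floor, CXCL11 was at least 15.4-fold higher, and at least 8.15-fold without donor 4.

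The size of the difference varied between donors. CXCL9 differed by 9.46 in donor 4 and by 7.36, 6.83, 6.14 and 5.11 in donors 1, 5, 2 and 3 on the log2 scale. The differences of CXCL10 were 8.51 in donor 4 and 6.02, 5.17, 5.03 and 3.74 in donors 1, 2, 3 and 5. Those of CXCL11 were 4.02 in donor 4 and 2.87, 2.64, 1.05 and 0.96 in donors 2, 1, 5 and 3. Donor 4 therefore gave the largest difference for each ligand, and the order of the other donors depended on the ligand. With 1 library per donor and group, the order of donors cannot be tested.

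The balance between the ligands was not the same in all donors. With IL-1β plus PF-06650833, the ratio of CXCL9 to CXCL10 in normalized counts was 1.58, 2.12, 1.47 and 2.09 in donors 1 to 4. In donor 5 it was 9.80 (95% exact binomial interval 8.04 to 12.1, for counting error only), above the intervals of the other donors, the highest of which ended at 2.31. Such a ratio between 2 genes is not corrected for their lengths and can be compared only between libraries. Donor 5 had a level of CXCL9 above that of donor 3, at 10.27, and the lowest level of CXCL10, at 7.17. The ratio of CXCL10 to CXCL11 lay between 14.5 in donor 2 and 66.7 in donor 3, and the interval of the latter reached from 27.9 to 267 because it rests on 4 estimated reads of CXCL11.

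**Figure D2:**
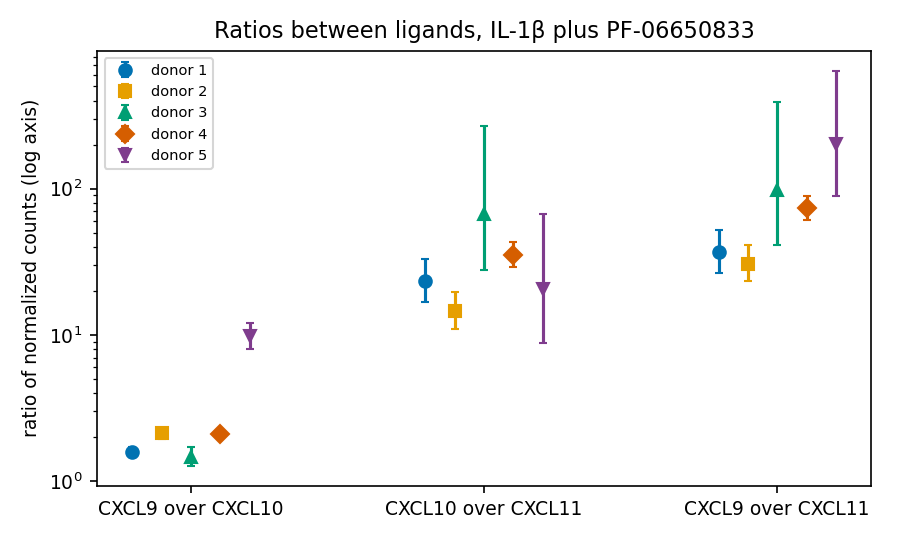
Ratios of normalized counts between pairs of ligands in the 5 libraries with IL-1β plus PF-06650833, on a log axis, with exact binomial 95% intervals for counting error. Donor 5 lies apart for CXCL9 over CXCL10, at 9.80 against 1.47 to 2.12 in the other 4 donors, and the ratios to CXCL11 in donors 3 and 5 have wide intervals.

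The receptor itself was not detected. CXCR3 was listed at 0 reads in all 10 libraries, which allows up to 3 reads in each, so the ligands were transcribed in cultures with no measurable transcript of their signalling receptor. Of the listed decoy receptors, which bind chemokines without classical signalling, ACKR3 (a receptor of CXCL11 and CXCL12) was expressed at 13.06 ± 0.73 with PF-06650833 alone and at 12.25 ± 0.91 with IL-1β (SD, n = 5 each). It was lower in 5 of 5 donors, by a mean of 0.81 on the log2 scale, but the groups overlapped and it did not pass limma (adjusted p = 0.254, and 0.00584 with the donor as replicate block, with a difference below the minimum of 1 in both). ACKR2 differed by -0.82 and ACKR1 by -1.0, and neither was differentially expressed (adjusted p = 0.0343 and 0.605 from limma). ACKR4, an atypical receptor outside the list that was named after its values were seen, fell from 8.21 ± 0.92 to 5.87 ± 0.55, in 5 of 5 donors (SD, n = 5 each, adjusted p = 0.00467 from limma). CXCL13, another chemokine that can bind CXCR3, had 55 estimated reads in donor 4 with IL-1β, whereas no library without IL-1β held more than 1, and it had reads in too few libraries to be tested. DPP4, the peptidase that trims these ligands at their N-terminus, was listed at 0 reads in all 10 libraries. MMP9, which can also cleave CXCR3 ligands, rose from 13.80 ± 0.71 to 15.89 ± 1.10 (SD, n = 5 each, adjusted p = 0.0182 from limma), though not in donor 4, where it was at 14.25 and 14.08, and it was not called without donor 1, 2 or 5.

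Over all tested genes, 6.68% were called by limma at an adjusted p below 0.05 and a log2 difference of at least 1, with 3.11% higher and 3.57% lower with IL-1β. The upstream steps of the interferon route are read against these shares. The interferon genes themselves were close to absent. IFNB1, IFNA1 and IFNK were listed at 0 reads in all 10 libraries. IFNG, the type II interferon and the classical inducer of CXCL9, was at 0 reads in every library with PF-06650833 alone. With IL-1β it was at 4.10, 4.22, 3.43, 4.31 and 3.89, which is at most 3 estimated reads, and no fold can be given. TNF had reads in 1 library, donor 2 with IL-1β, at 4.81. Of the 3 interferon and partner cytokine genes that could be tested, IL12A, a subunit of interleukin 12, was called (difference 1.07, adjusted p = 0.0495 from limma), and none was called without donor 1, 2, 3 or 5.

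For 12 interferon receptors and signal transducers the median difference was 0.25. Of these, 6 had an adjusted p below 0.05, 5 of them higher and 1 lower with IL-1β, each with a difference below the minimum of 1. By adjusted p alone, 2782 of all 17992 tested genes passed, 1362 of them higher and 1420 lower. STAT2 (difference 0.72, adjusted p = 0.0461 from limma) and IRF9 (0.82, adjusted p = 0.0287), transcription factors of the type I interferon response, were higher in 5 of 5 donors with differences below 1. The receptor chains IFNAR2 and IFNGR2 differed by 0.85 and 0.84 (adjusted p = 0.00883 and 0.00465 from limma) and IFNGR1 by 0.34. STAT3, which also transmits interleukin 6 signals, differed by -0.49 and was lower in 5 of 5 donors (adjusted p = 0.0134 from limma). The kinases JAK1 and TYK2 differed by 0.02 and -0.02, and IFNLR1 by -0.33 (adjusted p = 0.252).

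Of 9 interferon regulatory factors and related genes, 3 were called higher and none lower. IRF1, which binds the promoters of these ligands, rose from 9.64 ± 0.40 to 11.37 ± 1.03 (SD, n = 5 each, adjusted p = 0.0189 from limma). Its values with IL-1β were 11.30, 11.73, 11.13, 12.79 and 9.93 in donors 1 to 5, so that donor 4 was highest and donor 5, which overlapped the other group, lowest, and it was not called without donor 1 or donor 2 (adjusted p = 0.0905 and 0.0836). BATF2 and IRF8, both induced by interferon gamma in myeloid cells, rose by 2.52 and 1.99 (adjusted p = 0.00936 from limma for BATF2). IRF8 lacked reads in donor 5 with PF-06650833 alone and needed the group with IL-1β to pass the filter, so its difference is a description. IRF7, the amplifier of the type I interferon response, differed by 1.55 and was not called (adjusted p = 0.052 from limma) but passed with the replicate block (0.0205). The difference of IRF3 was 0.12 (adjusted p = 0.558 from limma).

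Among 12 genes of nucleic acid sensing, IKBKE, TICAM1 and DDX58 were called higher and none was called lower. IKBKE, a kinase that activates interferon regulatory factors, went from 9.80 ± 0.13 to 11.11 ± 0.26 (SD, n = 5 each, adjusted p = 1.90e-04 from limma). TICAM1, the adaptor of TLR3, rose by 1.24 and DDX58, which encodes the RNA sensor RIG-I, by 1.53 (adjusted p = 3.08e-04 and 0.00382 from limma).

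Genes that interferon induces were divided into antiviral genes and genes that lean towards interferon gamma, both lists of symbols in which the ligands are not counted. Of 38 antiviral genes tested, 7 were called higher and none lower, and the median difference of the 38 was 0.66. SAMHD1 differed by -0.76, below the minimum difference of 1, and was lower in 5 of 5 donors (adjusted p = 0.0478 from limma). RSAD2, an antiviral enzyme, rose by 3.07, LGALS3BP by 2.89 and SAMD9L by 1.55 (adjusted p = 0.00127, 0.0208 and 0.0381 from limma). The membrane tether gene BST2, also among the 7, differed by 2.81. It lacked reads in some libraries with PF-06650833 alone and needed the group with IL-1β to pass the filter, so its difference is a description. The count fell to 3 without donor 4, to 3 without donor 5 and to 1 without donor 1 or donor 2, and it lay between 2 and 8 when 1 library was left out. Calls over all tested genes fell too, from 1202 to 747, 778 and 770 without donors 1, 2 and 5, but were 1211 without donor 4. Of 18 genes that lean towards interferon gamma, 7 were called higher and none lower, with a median difference of 1.35. CD274, which encodes PD-L1, rose from 4.50 ± 0.32 to 7.35 ± 1.54 (SD, n = 5 each, adjusted p = 0.0105 from limma). The guanylate-binding protein gene GBP5 went from 4.02 ± 0.46 to 8.18 ± 2.25, and the MHC class II chaperone gene CD74 from 3.97 ± 0.96 to 7.70 ± 1.47 (SD, n = 5 each). GBP5 and CD74, both among the 7, lacked reads in some libraries with PF-06650833 alone. They needed the group with IL-1β to pass the filter, so their differences are descriptions. ICAM1 rose by 1.87 (adjusted p = 0.0145 from limma). The count was 8 without donor 4, and 3 and 4 without donors 1 and 2. With the replicate block 9 genes of each list were called, all higher, where 8.26% of all tested genes were called and 4.01% were higher.

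Donor 4 stood out in these lists as it did for the ligands. With IL-1β plus PF-06650833, donor 4 was the highest library for 3 of 3 ligands, for 36 of 38 antiviral genes and for 17 of 18 genes that lean towards interferon gamma, against 24.3% of all tested genes. With PF-06650833 alone, donor 4 was the highest for 5 of the 38, 7 of the 18 and none of the ligands, against 21.5% of all tested genes. The median difference of the antiviral genes was 1.92 in donor 4 and 0.17, 0.41, 0.51 and 0.11 in donors 1, 2, 3 and 5. That of the genes that lean towards interferon gamma was 2.46 in donor 4 and lowest, at 0.69, in donor 5, the donor with the lowest CXCL10. In donor 5 with IL-1β, 11 of these 18 genes were at their lowest among the 5 libraries, against 4244 of all 17992 tested genes. The lowest values of the 38 antiviral genes were more spread, with 14 in donor 5, 12 in donor 3 and 9 in donor 1. Genes of a list share regulation and libraries, so these counts carry no test.

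**Figure D3:**
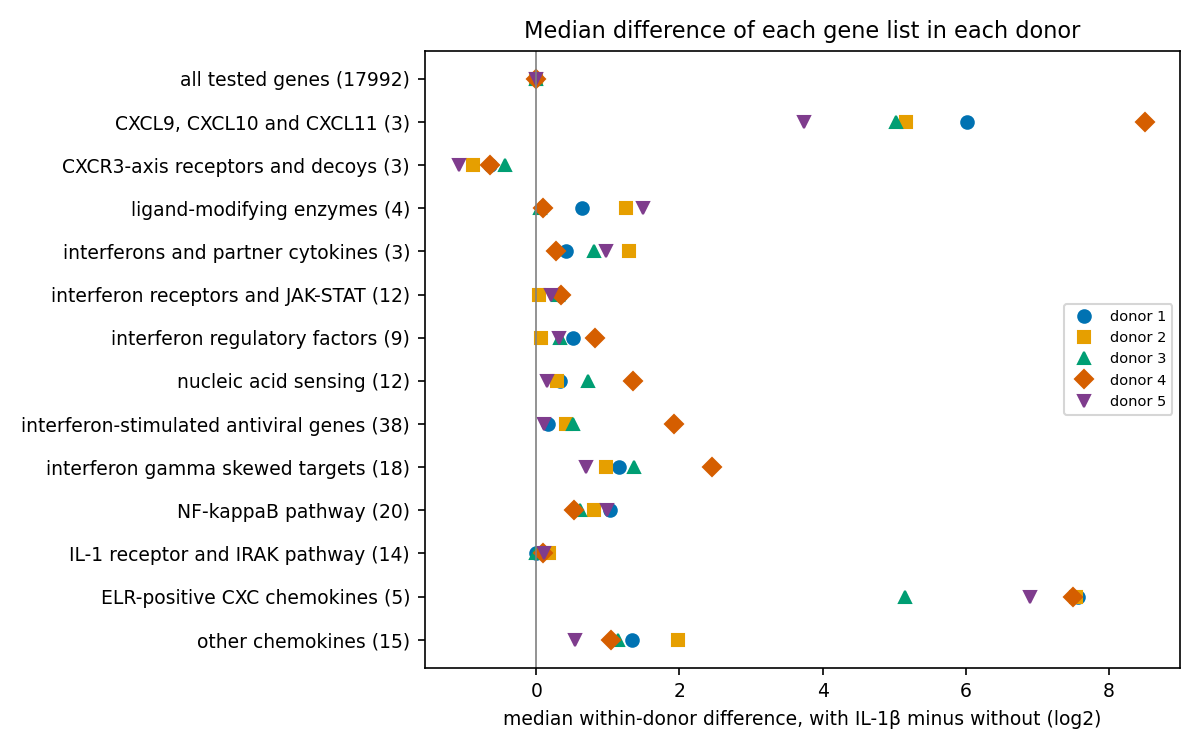
Median log2 difference within each donor, IL-1β plus PF-06650833 minus PF-06650833 alone, for the 3 ligands, the related gene lists and all tested genes, with the number of genes tested in parentheses. Donor 4 lies apart for the ligands (8.51), the antiviral genes (1.92) and the genes that lean towards interferon gamma (2.46), but is the lowest for the NFκB pathway (0.53).

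Donor 4 was also the highest for 9 of 12 nucleic acid sensing genes, 8 of 14 genes of the IL-1 receptor and IRAK pathway and 7 of 11 tenocyte markers, the last of which it led in 6 of 11 with PF-06650833 alone. For the NFκB pathway the share was close to that of all tested genes, at 25.0%. Of 20 genes of this pathway tested, 8 were called higher and none lower (median difference 0.83), and the count lay between 7 and 9 when each library or donor was omitted in turn. TRAF1 differed by -0.66, below the minimum difference of 1, and was lower in 5 of 5 donors (adjusted p = 0.0121 from limma). NFKBIZ, the nuclear IκBζ cofactor, rose by 2.92, NFKBIA, the feedback inhibitor, by 1.64, and NFKB2 and NFKB1 by 1.32 and 1.15 (adjusted p between 7.28e-05 and 4.36e-04 from limma). RELA, the p65 subunit, did not pass (difference 0.15, adjusted p = 0.288). Donor 4 was the highest library with IL-1β for 5 of the 20 genes, and the median difference was 0.53 in donor 4 against 0.61 to 1.03 in the others. Of 14 genes of the IL-1 receptor and IRAK pathway, IRAK2 (difference 1.86, adjusted p = 0.00218 from limma) and IRAK3 (1.04, adjusted p = 0.0117), the latter a negative regulator, were called higher. None was called lower, but MAP3K7 differed by -0.67, below the minimum difference of 1, and was lower in 5 of 5 donors (adjusted p = 0.00215 from limma). The count of calls in this list was 1 without donor 4, where IRAK3 differed by 0.82 and was no longer called. IRAK3 lay close to the minimum difference of 1. It also lost its call, at 0.92 to 0.98, when some single libraries of donors 1, 4 and 5 were left out. The difference of IRAK4, the target of PF-06650833, was 0.11 (adjusted p = 0.571).

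Among the chemokines that bind other receptors, the ELR-positive genes, which attract neutrophils, rose. All 5 that could be tested were called, and their median difference was 6.83, beside 6.98 for CXCL9 and 5.70 for CXCL10. The SD between donors with IL-1β was 0.63 to 0.82 for 4 of them and 1.79 for CXCL8, beside 1.63 for CXCL9 and 1.96 for CXCL10. With IL-1β, CXCL1 lay between 13.47 and 15.11 and CXCL2 between 10.10 and 11.97, and CXCL8 between 10.73 and 15.06. Donor 3 was the lowest library for all 5 ELR-positive genes and for CXCL9. CXCL1, CXCL2, CXCL6 and MIP-2BETA resemble each other, so that their reads may be divided uncertainly. Of 15 other chemokines tested, 6 were called higher, among them CCL20 by 4.69 and CCL2 by 2.40 (adjusted p = 0.00114 and 0.00218 from limma), and none lower. The 6 include CCL8, which like CXCL11 had no reads in the group without IL-1β and passed the filter only through the group in which it was high, so its difference of 2.78 is a description. They also include CCL1, whose difference of 3.57 is a description too. It lacked reads in donor 4 with PF-06650833 alone and needed the group with IL-1β to pass. The count was 4 without donor 4 and between 3 and 7 when libraries or donors were omitted in turn.

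Likeness of pattern was measured with Pearson's r over the 10 libraries, and again over the 10 deviations from the group means. The deviations hold the variation between donors together with library and counting error. CXCL11 and CCL8 had 0 reads in all 5 libraries with PF-06650833 alone. Over the deviations their likeness to other genes thus rests on the 5 libraries with IL-1β. All values of r are descriptions, since libraries share donors. Over the deviations, the symbols most like CXCL10 were GBP5, CD274, CCL8, SECTM1 and ETV7, with r between 0.954 and 0.958. Each of them had donor 4 highest and donor 5 lowest with IL-1β, as CXCL10 did, which follows largely from choosing them by r. CCL8, a monocyte-attracting chemokine, was at 0 reads in all libraries with PF-06650833 alone and at 6.47, 6.06, 5.43, 8.27 and 4.84 with IL-1β. For CXCL11 the closest were PTGER4, CANT1, CCL8, FAM13A and GBP5 (r between 0.921 and 0.934). For CXCL9 they were TBC1D13, PSME2, CANT1, MEFV and MRAS (0.911 to 0.956), of which PSME2, a subunit of the proteasome activator, is an interferon gamma target. Each of them had donor 4 highest and donor 3 lowest with IL-1β, as CXCL9 did, which again follows largely from the choice by r. None of these 5 was called, although the difference of PSME2 was 0.88. Between the ligands, r of the deviations was 0.919 for CXCL10 and CXCL11, 0.863 for CXCL9 and CXCL11, and 0.832 for CXCL9 and CXCL10, where CXCL10 ranked 42 of 13864 symbols by likeness to CXCL9.

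Over the 10 libraries, in which the difference between the groups dominates, the genes most like CXCL9 were PITRM1, IKBKE, ALDH9A1, NFKBIZ and HIPK2, with r between 0.981 and 0.985. Those most like CXCL10 were PTGER4, the prostaglandin receptor gene, with CCL8, KMT5C, CANT1 and KAT2B (0.977 to 0.986). The genes most like CXCL11 were CANT1, CCL8, GBP5, SECTM1 and ETV7 (0.967 to 0.976).

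The ligand genes lie side by side in the horse genome. In a RefSeq gene table of another horse assembly, used for names and order only, the protein-coding order is ART3, CXCL11, CXCL10, CXCL9 and SDAD1, and the span of ART3 encloses CXCL11 and CXCL10. No library held more than 4 estimated reads of ART3. It was at 0 reads in all 5 libraries with PF-06650833 alone, and with IL-1β it was at 3.93, 4.31, 3.43, 4.18 and 3.43 in donors 1 to 5. Reads were quantified against transcripts, and how they were divided between ART3 and the ligands it encloses was not tested. Of the 5 nearest protein-coding neighbours on each side, a set chosen after the data had been seen, 6 could be tested. Among these, 2 were called, both higher with IL-1β, where 6.68% of all tested genes were called and 3.11% were higher. The nearest tested genes, NUP54 and SDAD1, differed by -0.15 and 0.15 (adjusted p = 0.556 and 0.512 from limma). NAAA, a lysosomal amidase gene beyond SDAD1, rose by 2.66, in 5 of 5 donors (standard error 0.81, adjusted p = 0.0472 from limma, 0.00461 with the replicate block). LOC111772685, which follows PPEF2, rose from 5.19 ± 1.42 to 13.07 ± 2.51. It lacked reads in donor 4 with PF-06650833 alone and needed the group with IL-1β to pass the filter, so its difference is a description. NAAA and LOC111772685 were both highest in donor 2 and lowest in donor 4 with IL-1β, whereas donor 4 was the highest for the ligands. Their differences were largest in donor 5, at 4.36 for NAAA and 11.14 for LOC111772685.

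**Figure D4:**
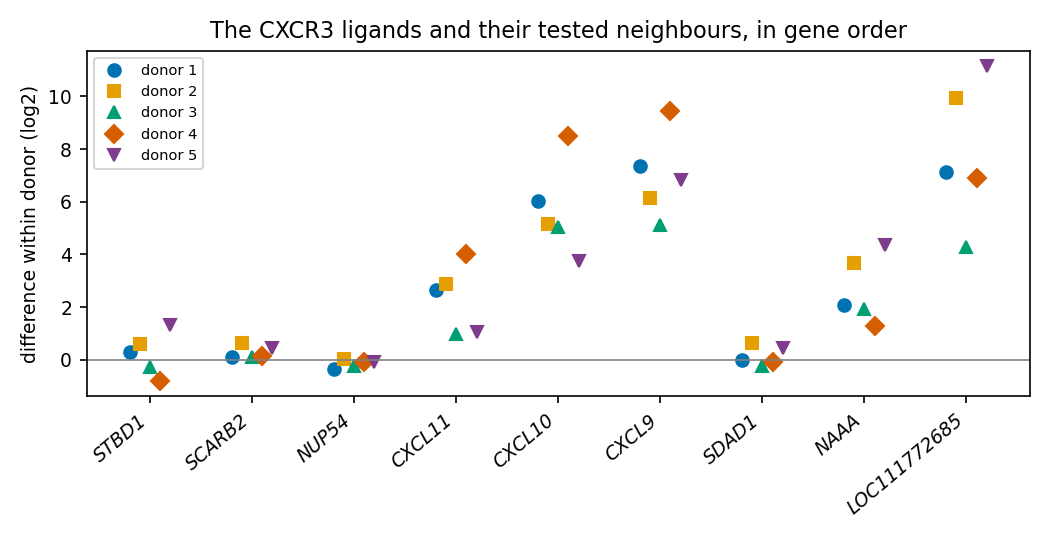
Log2 difference within each donor, IL-1β plus PF-06650833 minus PF-06650833 alone, for the ligands and their tested protein-coding neighbours in gene order. Between NUP54 and SDAD1, whose points lie near 0, donor 4 is highest for the 3 ligands (4.02, 8.51 and 9.46), while donor 5 is highest for NAAA (4.36) and LOC111772685 (11.14).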

How the data were processed

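Salmon (version 1.8, corrected for GC bias) was used by the authors to quantify reads against the horse transcriptome of EquCab3.0. They summed these to genes with tximport and used DESeq2 (version 1.36). They deposited log2 values, 1 column per library, for 29196 genes in 10 libraries. The variance-stabilizing transformation was recognised from the values and is not named in the sources used here. Normalized counts were obtained by inverting it, and estimated reads from the spacing of values below 6 normalized counts, of which 67.9% to 84.9% per library lay within 0.15 of a whole read.

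The fit used limma (version 3.58.1, run in R version 4.3.3), with a trend of variance on mean and, as the study names none, no donor term, on genes that exceeded the lowest value in 5 or more libraries. Adjusted p-values are Benjamini-Hochberg values over 17992 genes, and genes were called at an adjusted p below 0.05 and a log2 difference of at least 1. Donors pair the libraries by the line in the labels, and libraries of the same line deviated together from their group means (mean correlation 0.433, lowest 0.367, over 5 pairs, against -0.107 over 20 other pairs). No 2 libraries were identical (highest correlation 0.991). The ligands and the gene lists were chosen with earlier results of these data known, so the ligands carry no test. Named are a fixed set of genes of the pathway (CXCR3, ACKR3, DPP4, IFNB1, IFNG, STAT2, IRF1, IRF3, IRF7, IRF9 and RELA), the 4 called genes of each list with the smallest adjusted p, and the 5 most alike symbols per ligand. Others, such as CXCL13, CD14, ACKR4, IFNAR2, STAT3 and the neighbouring genes, were chosen after their values were seen. A further gene of the signalling list is not reported here and was left out of the counts over lists and named genes. A RefSeq gene table (assembly TB-T2T) held 23397 of the names. Alternatives were the replicate block, other scales, normalizations, filters and thresholds, and leaving out libraries or donors.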

Additional observations from a re-analysis of the deposited data

Results flagged for a closer look

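In 7 of the 117 gene and group combinations examined, the highest or lowest library lay apart from the remaining 4, where chance gives about 5.85. For the ligands this was the log2 ratio of CXCL9 to CXCL10 of donor 5 when IL-1β was present, at 3.29 against 0.56 to 1.08 in the other donors, from 106 estimated reads of CXCL10. With IL-1β, CCL20 was at 8.37 in donor 3 against 11.10 to 12.05, and HIPK2 at 11.78 in donor 4 against 11.11 to 11.28. With PF-06650833 alone, CD74 was at 5.64 in donor 2 against 3.43 to 3.92. Donor 2 was also the library with the most reads of CXCL9 and CXCL10 without IL-1β. In donor 1 of that group, DDX58 was at 10.56 against 9.90 to 10.02 and PTGER4 at 8.52 against 8.03 to 8.14. MEFV was at 3.92 in donor 5, from 1 estimated read, against 4.26 to 4.37. No cause of these values was tested.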

How the results depend on the processing

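The direction of every ligand held under each alternative run. This is no support, as the ligands were chosen from this comparison. Their groups did not overlap, so leaving out libraries or donors could not reverse them. The scale changed the size most. On log2(normalized count + 1) the differences were 9.68 for CXCL9, 8.32 for CXCL10 and 4.84 for CXCL11, the same with the replicate block, and with a pseudocount of 0.5 they were 10.23, 8.86 and 5.78, since these scales compress low values less. Leaving out a library or a donor gave 6.33 to 7.45 for CXCL9, 4.99 to 6.30 for CXCL10 and 1.88 to 2.65 for CXCL11 on the log2 scale. For ratios of mean normalized counts, leaving out a donor was an alternative chosen after seeing the data, and it gave 525 to 5130 for CXCL9 and 241 to 1920 for CXCL10, and at least 8.15 to 19.4 for CXCL11.

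The number of genes called, 1202 (560 higher, 642 lower), was 2782 (1362 higher, 1420 lower) with no minimum difference, 719 (345 and 374) at an adjusted p below 0.01, and 1809 (891 higher) with the replicate block on log2(normalized count + 1). It lay between 747 and 1410 when a library or a donor was left out (higher between 344 and 636, lower between 388 and 774), and was 747, 778 and 770 without donors 1, 2 and 5. Of the listed genes other than the markers, 43 were called, 26 at an adjusted p below 0.01 and between 27 (without donor 1 or 2) and 47 when a library or a donor was left out. With the replicate block alone 52 of these and 1486 of all genes were called. Of 54 named genes tested, 32 stayed called or not called under every alternative, 15 lost it and 7 gained it under at least 1, and no called gene changed direction. The causes of these changes were not tested. At 0 to 7 reads per library, levels without IL-1β are limited by counting error.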
